A study of Homo sapiens with 9 samples.

Results

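The H3K4me3 peaks of DND-41, a human cell line derived from a T-cell acute lymphoblastic leukemia (T-ALL), were described by width, spacing, chromosomal density, surrounding H3K27ac and the position of 2 factors. Every peak of the H3K4me3 list was taken, which gave 12834 of the 183634 peaks in the 5 lists of the series. The lists came from CUT&RUN, in which an antibody directs a nuclease to its target and the released DNA is sequenced in pairs. H3K4me3, BRG1 and RUNX1 were profiled in cells with no treatment label. H3K27ac was profiled in cells given DMSO, the solvent control, and in cells given ACBI-1 at 100 nM, a degrader of the ATPases of SWI/SNF complexes. All samples were this 1 line, and the 4 control samples (IgG, 1 of them titled as an input) were not analysed here. Each target and condition had 1 library, so no value has a replicate check. The lists give positions and no signal, so depth is unknown, no p-value is given, and the 95% intervals cover counting error over peaks only. Neighbouring peaks are not independent, which those intervals ignore.

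H3K4me3 is trimethylation of lysine 4 on histone H3. It is laid down mainly by SET1 and MLL methyltransferases on the nucleosomes that flank active transcription start sites, and the start site itself usually lies in a gap without a nucleosome. H3K27ac marks active promoters and also active enhancers, RUNX1 is a sequence-specific factor of blood lineages with a long record in T-ALL, and BRG1 (SMARCA4) is an ATPase subunit of SWI/SNF remodelers, which slide and evict nucleosomes. Positions are those of hg19, counted from 1. Peaks were not assigned to genes, so "promoter" is a property of the mark and was not tested against start sites.

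Most H3K4me3 peaks were 1 to 3 kb wide, and a second crest of narrow peaks lay under 500 bp. The list ran from 168 to 11476 bp, with 25% of peaks under 778 bp, a median of 1420 bp (interval 1399 to 1438) and 25% above 2045 bp. The fullest 100-bp bins were 200 to 300 bp, with 748 peaks, and, above 1 kb, 1300 to 1400 bp, with 638 peaks. The histogram therefore had 2 crests, which were not separate, with 345 peaks in the bin of 600 to 700 bp between them.

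Each class ran from its lower limit up to but not including the upper one. Peaks under 500 bp numbered 2193, or 17.1% of all (16.4 to 17.8), but held 3.30% of the H3K4me3 length. Peaks of 500 bp to 1 kb numbered 1886 (14.7%), with 7.29% of the length. The class of 1 to 2 kb was the most common, with 5353 peaks (41.7%, 40.9 to 42.6) and 41.0% of the length. Peaks of 2 to 3 kb numbered 2569 (20.0%) and held 31.7%. The 833 peaks of 3 kb or more were 6.49% of the list (6.07 to 6.93) and carried 16.7% of the length, so the broad end weighed more in length than in number. Only 82 peaks reached 5 kb.

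**Figure D1:**
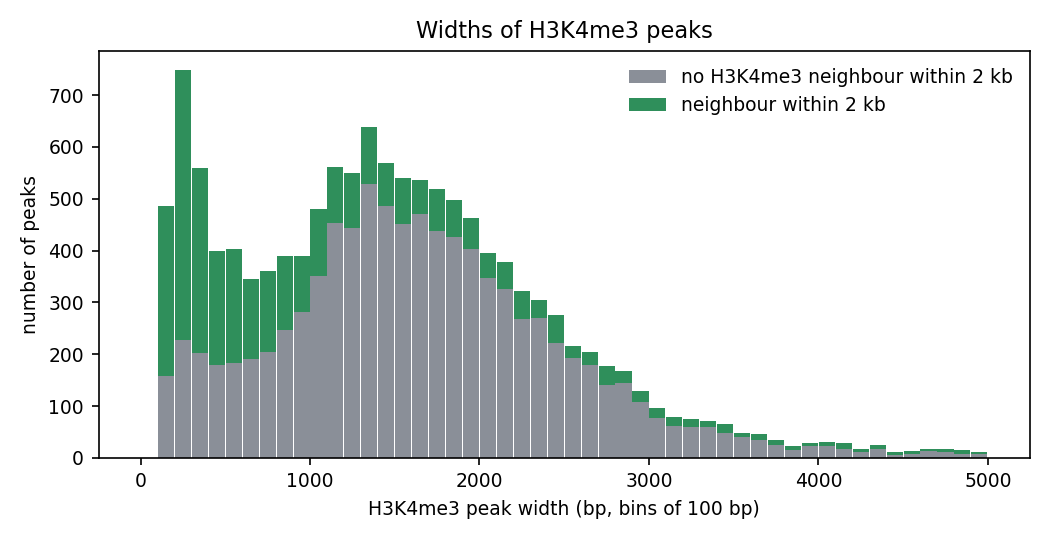
Number of H3K4me3 peaks (y axis) by peak width in bp (x axis, bins of 100 bp, up to 5000 bp), stacked by whether another H3K4me3 peak lay within 2 kb. Peaks with a neighbour make up most of the crest at 200 to 300 bp and a small part of the broad crest that peaks at 1300 to 1400 bp.

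The 5 widest peaks each carried RUNX1, as did 80.7% of all H3K4me3 peaks of 3 kb or more. The widest, at chr17:56406262-56417737 (11476 bp), held 6 RUNX1 midpoints and 1 BRG1 midpoint, where a midpoint is the middle of a factor's peak and not its summit. The peak at chr3:50642496-50651846 (9351 bp) held 1 of each. The peak at chr4:109081879-109091024 (9146 bp) held 5 RUNX1 midpoints and 1 of BRG1. At chr11:118209376-118218013 (8638 bp) there were 2 RUNX1 midpoints and none of BRG1, and at chr2:43446678-43455253 (8576 bp) 6 and 1. The peaks on chromosomes 17, 2 and 4 were also the 3 with the most RUNX1 midpoints of all H3K4me3 peaks. A longer peak has more room for midpoints, and RUNX1 numbered 0.319 per kb in peaks of 3 kb or more.

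Closely spaced H3K4me3 peaks were common, and the narrower peak of a pair was mostly under 500 bp. Of 12810 gaps between neighbouring H3K4me3 peaks, 2038 were 2 kb or shorter, and 3711 peaks (28.9%, 28.1 to 29.7) had such a neighbour. The gaps in these pairs had a median of 214 bp (205 to 223), while the gaps beyond 2 kb had a median of 73737 bp. The longest gap inside the limit of 2 kb was 1982 bp and the shortest outside 2011 bp. Within the pairs, 945 gaps (46.4%) were under 200 bp, 716 (35.1%) were 200 to 500 bp, 210 (10.3%) were 500 bp to 1 kb and 167 (8.19%) were longer. Most gaps were therefore shorter than 500 bp, and none was below 111 bp.

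Neighbours were most frequent around the narrowest peaks. The share with a neighbour within 2 kb was 65.1% under 500 bp, 41.3% at 500 bp to 1 kb, 16.9% at 1 to 2 kb, 14.6% at 2 to 3 kb and 27.4% at 3 kb or more. The wider member of a pair had a median of 1429.5 bp (1368 to 1492) and the narrower 337 bp (325 to 347), a median ratio of 3.01 (2.85 to 3.17). With peaks under 500 bp left out, 13.1% of the rest had a neighbour. The narrower member was under 500 bp in 1353 pairs (66.4%), whereas both members reached 1 kb in only 246 (12.1%). Runs of neighbours grouped the list into 10796 regions, of which 9123 were single peaks, 1402 held 2 peaks, 204 held 3 and 67 held 4 or more, up to 6. The median width was 1594 bp for single peaks and 738 bp for peaks in groups.

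The gaps of pairs were acetylated more often than not in DMSO. H3K27ac covered 1395 of the 2038 gaps in full (68.4%), 8.54% in part and 469 (23.0%) not at all. Under ACBI it covered 897 in full (44.0%), 163 in part and 978 (48.0%) not at all. H3K27ac therefore usually ran unbroken across the gap in DMSO, while in ACBI the gaps it crossed in full were fewer than those it left bare. In this bulk assay, fewer cells with the mark and less mark per cell cannot be told apart.

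Factor midpoints were about as dense in the gaps as in the peaks on either side. In the 1402 groups of exactly 2 peaks, RUNX1 midpoints numbered 0.354 per kb in the gap (0.304 to 0.410), 0.358 in the wider peak (0.335 to 0.382) and 0.446 in the narrower (0.399 to 0.496). In the 500 bp beyond the pair they fell to 0.0585 per kb on the narrower side and 0.0528 on the wider. BRG1 numbered 0.225 per kb in the gap (0.185 to 0.270), 0.192 in the wider peak (0.175 to 0.210) and 0.223 in the narrower (0.191 to 0.260), against 0.0128 and 0.0285 beyond. The gap thus had the factor density of an H3K4me3 peak and not that of its flanks.

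A RUNX1 midpoint lay in 212 of all 2038 gaps (10.4%, 9.11 to 11.8) and a BRG1 midpoint in 142 (6.97%, 5.90 to 8.16), or in 12.7% for BRG1 when only peaks of at least 500 bp were paired. Short gaps were the dense ones. RUNX1 numbered 0.452 per kb in gaps under 200 bp, 0.440 at 200 to 500 bp, 0.262 at 500 bp to 1 kb and 0.0814 in gaps of 1 to 2 kb. BRG1 numbered 0.311, 0.324, 0.152 and 0.0326 per kb in the same classes, so gaps over 1 kb came near the flanks. Factor peaks are as wide as many gaps, and by any overlap RUNX1 peaks touched 570 gaps (28.0%) and BRG1 peaks 293 (14.4%).

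None of the 5 pairs with the longest summed width had a factor midpoint in its gap. Over all gaps only 10.4% held one of RUNX1 and 6.97% one of BRG1, so this does not set the 5 apart. The longest was the chromosome 4 peak named above with chr4:109092458-109095088 (2631 bp) across 1433 bp, a gap that H3K27ac covered in full in both conditions. The chromosome 3 peak named above lay 1619 bp from a peak of 323 bp, and H3K27ac covered 638 bp of that gap under DMSO and 439 bp under ACBI. At chr5:40678131-40679350 (1220 bp) and chr5:40679570-40687771 (8202 bp), the gap of 219 bp was covered in full in both. The peak at chr3:35679792-35688088 (8297 bp) lay 925 bp from a peak of 308 bp, again covered in full in both. The gap of 788 bp beside chr7:92459241-92467181 (7941 bp) was covered in full by the DMSO list and over 13 bp by the ACBI list, the only one of the 5 with such a loss.

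Density differed widely between chromosomes. Per Mb of span, measured from position 1 to the last peak of any list with unsequenced gaps included, the whole list gave 4.15 H3K4me3 peaks. Chromosome 19 held 1014 peaks or 17.2 per Mb, chromosome 17 held 780 or 9.61, and chromosome 22 held 330 or 6.44. The lowest were Y with 20 peaks (0.337 per Mb), chromosome 13 with 245 (2.13) and chromosome 4 with 434 (2.27). The dense chromosome 19 had narrow peaks, with a median of 1272.5 bp (1220 to 1345), and the sparse chromosome 4 wide ones, with 1585 bp (1456 to 1747). Width did not follow density throughout, since X, with 2.77 peaks per Mb, had a median of 1268.5 bp (1183 to 1348).

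Other features varied less between autosomes than density did. The share with a neighbour within 2 kb ran from 22.5% (chromosome 5) to 34.4% (chromosome 6), and the share with DMSO H3K27ac from 90.1% (chromosome 16) to 94.7% (chromosome 9). RUNX1 midpoints were in 47.8% of peaks on chromosome 7 and in 64.7% on chromosome 21. BRG1 midpoints were in 25.2% on chromosome 15 and in 45.0% on chromosome 20.

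The X chromosome stood below every autosome for both factors. Of its 430 H3K4me3 peaks, 41.2% (36.5 to 46.0) had a RUNX1 midpoint and 16.7% (13.3 to 20.6) a BRG1 midpoint. Its share with DMSO H3K27ac, 91.2%, was inside the autosomal range, so X was not low by this measure. The X peaks were narrow, with a median of 1268.5 bp, and 35.3% had a neighbour within 2 kb, above every autosome. Factor shares also differed by width and by neighbours, and the part of these in the X values was not tested. X had 3.65 DMSO H3K27ac peaks per H3K4me3 peak, the lowest of all chromosomes, next to 4.05 on chromosome 19 and 11.4 on chromosome 21. The X intervals overlapped those of several autosomes for RUNX1, while for BRG1 the upper bound stayed below every autosomal lower bound.

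**Figure D2:**
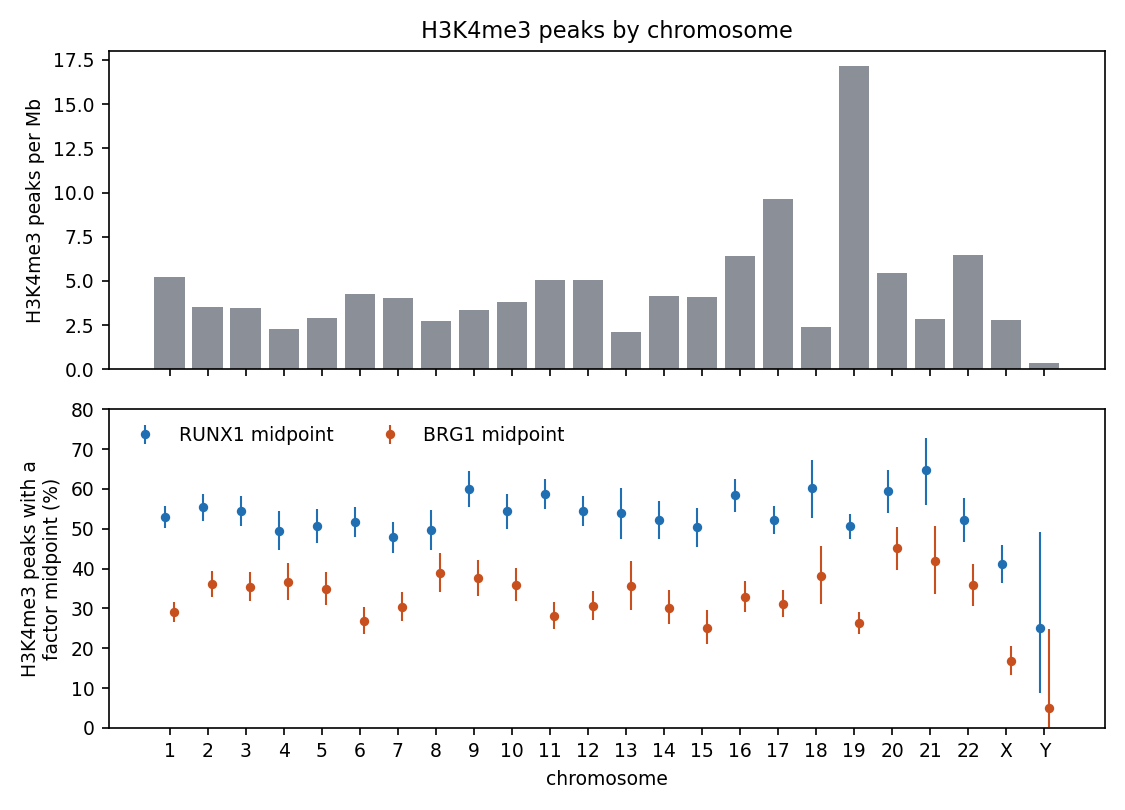
H3K4me3 peaks per Mb of chromosome span (upper panel, bars) and the percentage of H3K4me3 peaks with a RUNX1 or BRG1 midpoint (lower panel, points with exact 95% intervals over peaks) for each chromosome. Chromosome 19 reaches 17.2 peaks per Mb, and X has the lowest RUNX1 and BRG1 shares apart from the 20 peaks on Y.

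H3K4me3 was concentrated in a small part of the genome. In fixed bins of 1 Mb, 1037 of 3109 bins (33.4%) held no peak, the median was 2, and the fullest 311 bins held 43.7% of all peaks. The fullest bin, chr6:26000001-27000000, held 54 peaks, of which 53 had DMSO H3K27ac and 35 a neighbour within 2 kb, but only 3 a RUNX1 midpoint and 1 a BRG1 midpoint. The bin chr11:65000001-66000000 held 49 peaks, with RUNX1 in 25 and BRG1 in 16. The bin chr6:31000001-32000000 held 45 peaks, with RUNX1 in 22 and BRG1 in 9. DMSO H3K27ac lay on 47 of the 49 peaks and on 42 of the 45, so these bins were nearly all acetylated too. The fullest bin was nearly free of factor midpoints, unlike the next 2.

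Acetylation in DMSO rose with H3K4me3 width, and H3K27ac reached past the edges of most peaks by a short distance. The share of peaks with DMSO H3K27ac was 75.0% under 500 bp, 87.3% at 500 bp to 1 kb, 97.5% at 1 to 2 kb and 99.8% at 2 to 3 kb. At 3 kb or more, 833 of 833 peaks had DMSO H3K27ac (99.6 to 100%). The 927 peaks without it were narrow, with a median of 394 bp, and 13.9% had a RUNX1 midpoint and 8.85% a BRG1 midpoint. H3K27ac covered 83.1% of the H3K4me3 length and a median of 94.0% of an acetylated peak, and it covered 39.4% of these peaks from edge to edge.

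The reach of H3K27ac was measured as the bp by which the overlapping H3K27ac peaks passed the 2 edges of an H3K4me3 peak, added together. It passed both edges at 39.6% of the 11907 acetylated peaks (38.8 to 40.5), 1 edge at 38.8% and neither at 21.6%. The summed reach had a median of 471 bp (445 to 491), with 25% of peaks at or below 33 bp, 25% at or above 1689.5 bp and 10% at or above 4913 bp. Where there was any reach, the longer side held a median of 99.6% of it. Acetylation thus usually extended mainly to 1 side. The left and right sides, taken along the chromosome and not by gene direction, had the same median, 99 bp.

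The reach was longest at the narrowest peaks, shortest at 1 to 2 kb and longer again at the broad end. The median was 2117 bp for peaks under 500 bp, 701 bp at 500 bp to 1 kb, 274 bp at 1 to 2 kb, 325.5 bp at 2 to 3 kb and 682 bp at 3 kb or more. A reach of 5 kb or more occurred at 1173 peaks (9.85%), with 24.1% of the narrowest class, 4.94% of the 1 to 2 kb class and 18.0% of the broadest. The reach counts H3K27ac that also crosses a neighbouring H3K4me3 peak, and neighbours moved with this value. Peaks in groups had a median reach of 1746 bp and single peaks 259 bp, and with peaks within 2 kb merged the overall median went from 471 to 288 bp. Among peaks under 500 bp, the 1427 with a neighbour had a reach of 2654 bp and the 766 without one 1003 bp.

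The longest reach, 95210 bp, belonged to chr2:240217178-240220338 (3161 bp), with 73838 bp to the left and 21372 bp to the right. Under ACBI its reach was 46500 bp. The peak at chr17:75446395-75451707 (5313 bp) had 93066 bp, against 48862 bp under ACBI. The next 3 were narrow peaks of 220, 377 and 168 bp. Their reach did not fall in common: the DMSO and ACBI values were 87967 and 95909 bp at chr14:100536850-100537069, 56775 and 187256 bp at chr17:55628570-55628946, and 51899 and 42527 bp at chr20:30270280-30270447. A reach of this length is that of a single called domain, and 1211 of the 10598 DMSO peaks on H3K4me3 (11.4%) held more than 1 H3K4me3 peak, up to 8.

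H3K4me3 peaks with both factors were the widest and those with neither the narrowest, and over all widths the reach of H3K27ac was longest where neither factor lay. Both RUNX1 and BRG1 midpoints were found in 3283 peaks (25.6%), with a median width of 1882 bp and a median reach of 320 bp. RUNX1 alone was in 3532 (27.5%), of 1612.5 bp and 447 bp. BRG1 alone was in 793 (6.18%), of 1421 bp and 340.5 bp. Neither was in 5226 (40.7%), of 926 bp and 748 bp, and 42.6% of these had a neighbour against 16.6% of those with both. Width moved with these values, and within width classes the full order of these groups was not the same. Under 500 bp the reach was 1205.5 bp with both (837 to 1428) and 2306.5 bp with neither (2126 to 2517), and at 2 to 3 kb it was 252.5 bp (198 to 301) and 427.5 bp (321 to 589). At 500 bp to 1 kb it was 604 and 749 bp, at 1 to 2 kb 260 and 274 bp, and at 3 kb or more 424 and 1105 bp, each with overlapping intervals. The median with both factors was thus below that with neither in each of the 5 classes, and the intervals were apart in 2 of them. Peaks with RUNX1 alone had 1096 bp at 3 kb or more (769 to 1540), above those with both, and 316 bp at 1 to 2 kb. Peaks with BRG1 alone had the shortest reach at 1 to 2 kb, 158 bp (106 to 245), but the longest median at 500 bp to 1 kb, 814 bp (561 to 1016), and 707 bp at 3 kb or more (146 to 2079).

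In ACBI, H3K27ac stayed on most H3K4me3 peaks but reached less far. Of the 11907 peaks acetylated in DMSO, 1906 (16.0%, 15.4 to 16.7) overlapped no ACBI peak. Over the whole DMSO list, 59.1% of H3K27ac peaks had no ACBI overlap. These shares count H3K4me3 peaks and H3K27ac peaks, which differ in width. The share without ACBI H3K27ac was 34.9% under 500 bp, 30.7% at 500 bp to 1 kb, 13.2% at 1 to 2 kb, 5.03% at 2 to 3 kb and 1.44% at 3 kb or more (12 of 833). It fell at each step of width, and only 71 peaks had H3K27ac in ACBI alone.

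At the 10001 peaks with H3K27ac in both, H3K27ac reached a median of 525 bp under DMSO (499 to 552) and 127 bp under ACBI (111 to 143). It was shorter in ACBI at 65.6% of them, and the median of ACBI minus DMSO was -173 bp (-187 to -157). By width class the medians were 3012 and 1905 bp, 1093 and 460.5 bp, 329.5 and 31 bp, 355 and 0 bp, and 706 and 127 bp in DMSO and ACBI. The median covered part of a peak was 96.1% in DMSO and 79.7% in ACBI, so H3K27ac also drew back within the H3K4me3 peaks. Over all peaks the covered H3K4me3 length went from 83.1% to 63.7%, a ratio of 0.766, while the covered length of the whole list had a ratio of 0.556. The lists do not tell how far depth or background differed between these 2 libraries, and their part in the shorter reach was not tested.

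**Figure D3:**
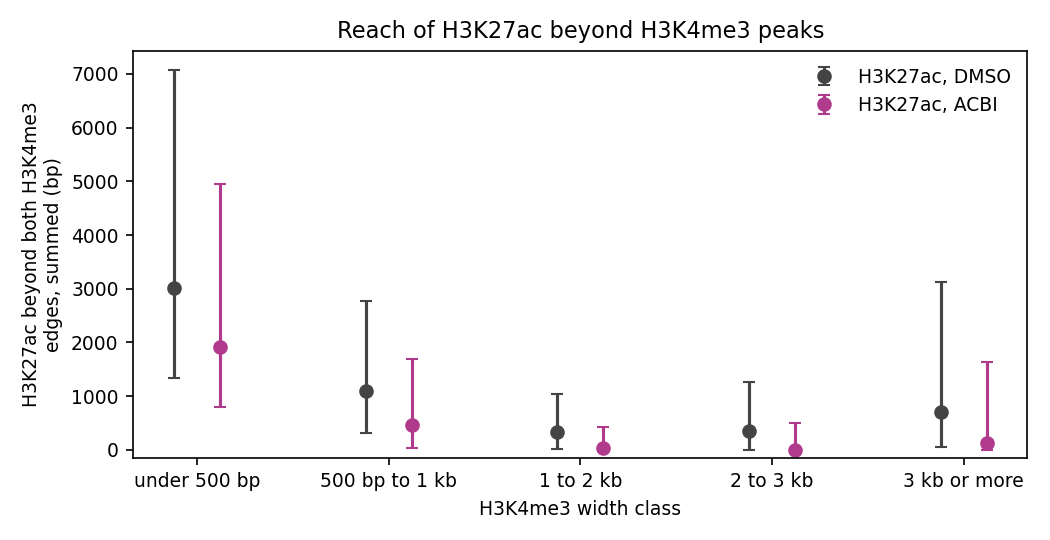
Reach of H3K27ac beyond both H3K4me3 edges, summed in bp (y axis), by H3K4me3 width class (x axis), for the 10001 peaks with H3K27ac in DMSO and in ACBI. Points are medians and bars run from the 25% to the 75% value over peaks. The median is lower in ACBI in every class and is 0 bp in ACBI at 2 to 3 kb.

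Some H3K4me3 peaks carried H3K27ac peaks on both sides of an interruption. In DMSO there were 177 such interruptions in 169 H3K4me3 peaks, with a median of 760 bp, and in ACBI 332 in 323 peaks, with a median of 804.5 bp. In ACBI 82.5% were centred in the inner 50% of the H3K4me3 peak, against 67.2% in DMSO. Of the 332 ACBI interruptions, 275 (82.8%) were fully covered by H3K27ac in DMSO, and 5 not at all. Most ACBI interruptions thus lay where DMSO H3K27ac crossed the H3K4me3 peak without a break.

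BRG1 midpoints, and less clearly those of RUNX1, were denser in the ACBI interruptions than beside them. BRG1 midpoints numbered 0.389 per kb in them (0.321 to 0.466) and 0.160 in the rest of the same H3K4me3 peaks (0.131 to 0.192), and 115 of them (34.6%) held one. RUNX1 numbered 0.455 (0.382 to 0.538) and 0.309 (0.269 to 0.353). In DMSO the order was the other way, with BRG1 at 0.0865 in the interruptions and 0.208 in the rest, and RUNX1 at 0.126 and 0.334. Position in the peak moved with this, so the inner 50% was also taken alone, and there BRG1 numbered 0.435 inside and 0.175 outside the ACBI interruptions. RUNX1 numbered 0.483 inside (0.397 to 0.582) and 0.342 outside (0.276 to 0.420) in that inner part, with overlapping intervals. For the DMSO interruptions the inner values were 0.127 and 0.228 for BRG1 and 0.169 and 0.351 for RUNX1, also overlapping. BRG1 and RUNX1 were mapped in cells with no treatment label, and their positions in ACBI were not measured.

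RUNX1 and BRG1 midpoints grew sparser step by step from 200 bp inside the H3K4me3 edge to 500 bp outside it. Inside H3K4me3 lay 7931 of 19893 RUNX1 midpoints (39.9%) and 4333 of 7445 BRG1 midpoints (58.2%). RUNX1 numbered 0.486 per kb at 200 to 300 bp inside the edge, 0.215 in the last 50 bp inside, 0.184 in the first 50 bp outside, 0.0744 at 100 to 200 bp outside and 0.0210 at 400 to 500 bp. BRG1 numbered 0.271 per kb at 100 to 200 bp inside, 0.120 in the last 50 bp, 0.0867 in the first 50 bp outside, 0.0374 at 100 to 200 bp and 0.00776 at 400 to 500 bp. At 2 to 3 kb outside, RUNX1 stood at 0.00898 and BRG1 at 0.00116 per kb. Both factors thus declined through the first 500 bp outside the edge, and 846 RUNX1 midpoints (4.25%) and 379 BRG1 midpoints (5.09%) lay within 500 bp of an edge on the outside. The outside here includes the gaps of pairs, and in gaps under 200 bp RUNX1 numbered 0.452 per kb and BRG1 0.311. In the 500 bp beyond groups of 2, on the narrower and the wider side, RUNX1 numbered 0.0585 and 0.0528 per kb. BRG1 numbered 0.0128 and 0.0285 there.

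**Figure D4:**
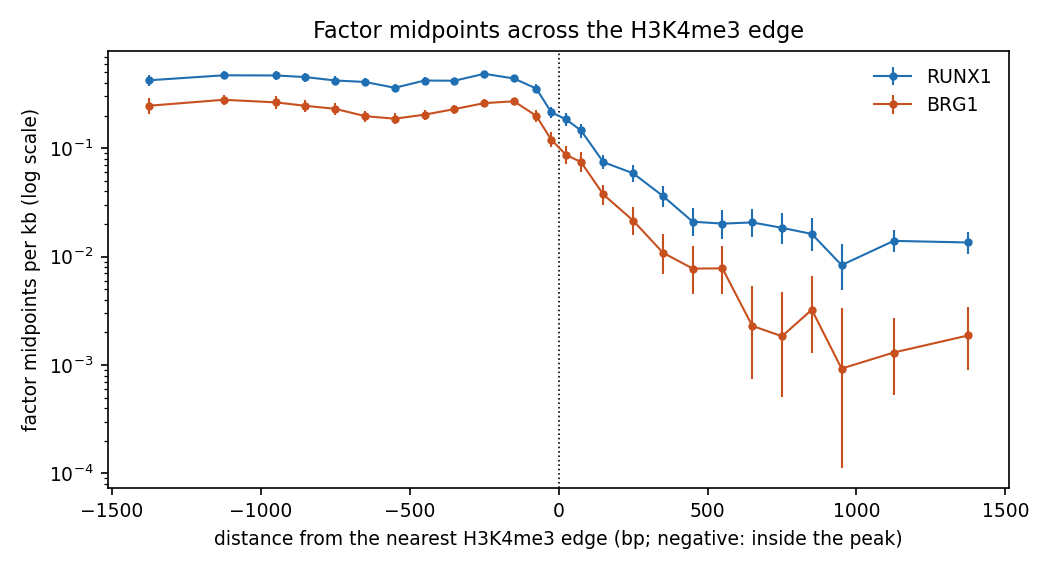
RUNX1 and BRG1 midpoints per kb (y axis, log scale) by distance from the nearest H3K4me3 edge in bp (x axis, negative inside the peak), with exact Poisson 95% intervals as bars. The outside includes the gaps between paired H3K4me3 peaks. RUNX1 goes from 0.486 per kb at 200 to 300 bp inside to 0.0210 at 400 to 500 bp outside. Both factors dip at 500 to 600 bp inside, RUNX1 to 0.361 and BRG1 to 0.187 per kb.

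Wider peaks held factors more often, but at a lower density. A RUNX1 midpoint lay in 53.1% of H3K4me3 peaks (52.2 to 54.0), from 18.4% under 500 bp through 38.3%, 58.6% and 73.3% to 80.7% at 3 kb or more. A BRG1 midpoint lay in 31.8% (31.0 to 32.6), from 9.85% through 20.7%, 33.7% and 47.9% to 51.9%. Per kb the order was reversed. RUNX1 went from 0.628 per kb under 500 bp through 0.524, 0.436 and 0.369 to 0.319, and BRG1 from 0.338 through 0.279, 0.233 and 0.215 to 0.166. Most occupied peaks held 1 midpoint of a factor, since 850 peaks had 2 RUNX1 midpoints and 122 had 3 or more, and for BRG1 the counts were 229 and 13.

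In peaks of 1 to 2 kb both factors were sparser at the centre than farther out, and at 2 to 3 kb they were not. BRG1 numbered 0.144 per kb within 100 bp of the centre of 1 to 2 kb peaks, 0.327 at 400 to 500 bp and 0.0850 at 800 to 900 bp. RUNX1 numbered 0.364 per kb within 100 bp, 0.559 at 300 to 400 bp and 0.115 at 800 to 900 bp. Midpoints beyond the edges were counted too. With a median width of 1475 bp in this class, 800 to 900 bp lay outside most of these peaks. In peaks of 2 to 3 kb BRG1 was level at 0.300 per kb within 100 bp and 0.311 at 300 to 400 bp, then 0.255 at 400 to 500 bp, and RUNX1 was at 0.514 within 100 bp and 0.409 at 400 to 500 bp. Of these 2 classes, only the narrower showed a dip at the centre. At 3 kb or more, RUNX1 numbered 0.414 per kb within 100 bp, and BRG1 numbered 0.192 within 100 bp, 0.258 at 100 to 200 bp and 0.288 at 600 to 700 bp, with overlapping intervals, so no dip could be told at this number of peaks.

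The share of inside midpoints that lay in the inner 50% of the peak scales each peak to its own width, and even placement would give 50%. For BRG1 it was 68.7% under 500 bp, 44.3% at 500 bp to 1 kb (39.3 to 49.4), 43.7% at 1 to 2 kb (41.4 to 46.0), 64.5% at 2 to 3 kb (61.9 to 67.1) and 60.0% at 3 kb or more. For RUNX1 it was 67.2%, 55.4%, 49.97% (48.3 to 51.6), 63.3% and 55.5%. At 1 to 2 kb this share was thus low for BRG1 and even for RUNX1. On the same scale, RUNX1 there numbered 0.381 per kb in the first 20% of the way from centre to edge. It numbered 0.532 at 60 to 80% of the way and 0.286 in the last 20%. At 500 bp to 1 kb, BRG1 numbered 0.191 per kb (0.143 to 0.249) in the first 20% and 0.378 (0.309 to 0.456) at 60 to 80%. A lower BRG1 density at the centre was thus not confined to 1 to 2 kb. Over all peaks the inner share was 55.9% for RUNX1 (54.8 to 57.0) and 53.4% for BRG1 (51.9 to 54.9). These values hid the opposite placement of BRG1 in the 2 main width classes. In peaks with no neighbour and exactly 1 BRG1 midpoint, the shares were 44.3% (41.8 to 46.8) at 1 to 2 kb and 67.3% at 2 to 3 kb, so the contrast did not rest on paired peaks or on peaks with several midpoints.

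**Figure D5:**
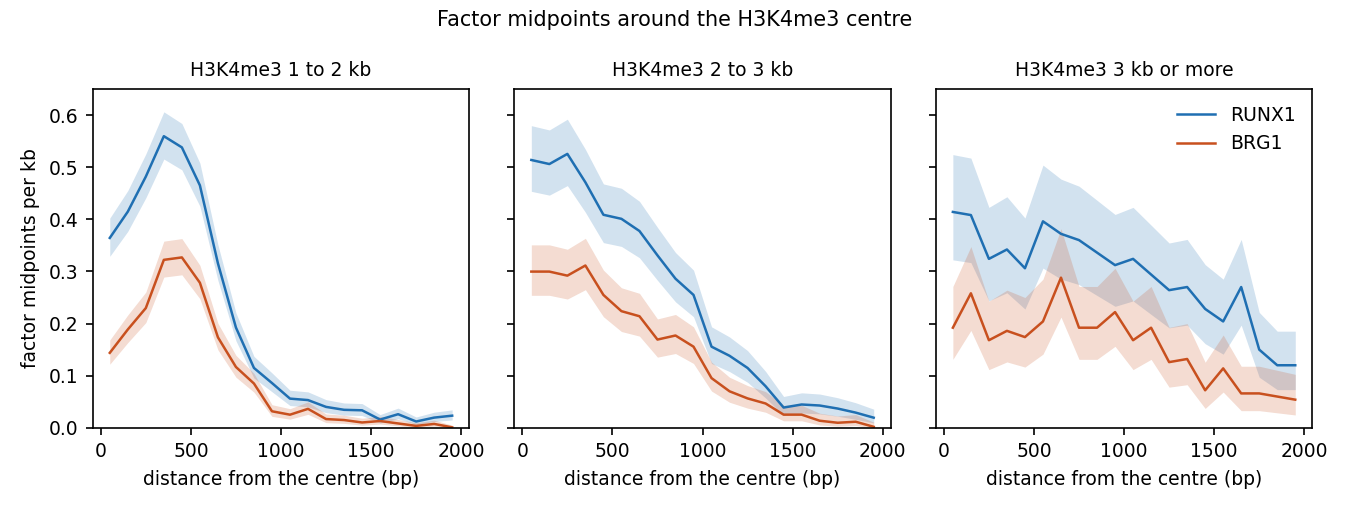
RUNX1 and BRG1 midpoints per kb (y axis) by distance from the H3K4me3 centre in bp (x axis, both sides added), in 3 width classes, with exact Poisson 95% intervals as bands. Midpoints beyond the peak edges are included. At 1 to 2 kb both curves rise away from the centre, BRG1 from 0.144 to 0.327 per kb, while at 2 to 3 kb both are about level out to 300 bp and then decline.

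Where a peak held 1 midpoint of each factor, the 2 midpoints lay close together. In the 2651 H3K4me3 peaks with exactly 1 midpoint of each, the midpoints were a median of 62.5 bp apart. Their median distance from the centre was 350.5 bp for RUNX1 and 361 bp for BRG1. In 91.7% of these peaks they lay on the same side of the centre, a share that largely follows from their closeness. BRG1 was the nearer of the pair to the centre in 49.9%. Neither factor had a preferred direction on the chromosome, with 50.1% of RUNX1 and 50.5% of BRG1 midpoints to the left of the centre. Peaks were not oriented by gene, so placement relative to the direction of transcription was not tested.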

How the data were processed

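The authors deposited each list as positions in 4 columns (chromosome, start, end, name), with no score, so the values used have no other unit than bp. Per the submitters' processing notes, coordinates are hg19 and the tools include SEACR and MACS2, with no role given. Both H3K27ac lists hold broad peaks and the RUNX1 list MACS2 peaks, per the file headers. For the H3K4me3 and BRG1 lists, the sources used here give neither caller nor threshold, and for no list do they give the aligner or the use of controls.

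Samples were grouped by title, with 1 library per group. Overlap meant at least 1 bp, and a factor lay in a region that held its peak midpoint. Shares carry exact Clopper-Pearson 95% intervals, medians exact binomial order-statistic intervals and densities exact Poisson intervals. Positions were handled with pandas 2.3.3, numpy 2.4.6 and scipy 1.17.1 under Python 3.11.15, plotted with matplotlib 3.10.9, checked against bedtools 2.31.1 with 0 peaks differing, and tested on simulated data. Sites named were the 5 widest peaks, widest pairs and longest reaches, and the extreme 3 chromosomes, bins and peaks by RUNX1 midpoints. Members and lists were chosen with earlier results of these data known. The interruptions of H3K27ac, the split of narrow peaks by neighbour, the comparison of autosomes with X and the single-midpoint shares by width were chosen after seeing the data. Alternatives were other width minima, merged peaks, pair limits and overlap rules. Peaks carry no gene names, and gene lists were not used here, because the only gene table was of another build.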

Additional observations from a re-analysis of the deposited data

How the results depend on the processing

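Of 55 values under alternative settings, 24 stayed inside the interval of the reported value and 31 moved, and restricting to autosomes and X moved none. With H3K4me3 peaks of at least 500 bp only, the median width went from 1420 to 1616 bp, the share with a neighbour from 28.9% to 13.1%, the share with DMSO H3K27ac from 92.8% to 96.4%, H3K27ac beyond both edges from 39.6% to 33.9% and the median reach from 471 to 355 bp. The same restriction took RUNX1 from 53.1% to 60.3%, BRG1 from 31.8% to 36.3%, pair gaps with RUNX1 from 10.4% to 15.0%, pair gaps with BRG1 from 6.97% to 12.7% and peaks kept in ACBI from 84.0% to 87.0%. Merging H3K4me3 peaks within 2 kb gave a width of 1687 bp, DMSO H3K27ac at 95.2%, both edges at 33.7%, a reach of 288 bp, RUNX1 at 62.1%, BRG1 at 38.1%, BRG1 in the inner 50% at 55.6% and 86.8% kept in ACBI. Merging H3K27ac peaks within 1 kb gave both edges at 42.8%, a reach of 633 bp and 98.2% of it on the longer side. Pairs within 1 kb gave 26.8% with a neighbour and pairs within 3 kb 30.5%. Requiring H3K27ac over 50% of the peak gave 86.4% in DMSO and 71.0% kept in ACBI. Any overlap of 1 bp gave RUNX1 at 58.8% and BRG1 at 34.5%, and midpoints within 500 bp gave 61.2% and 37.0%. Peaks with no neighbour gave an inner share of 57.5% for RUNX1 and 55.4% for BRG1. No paired analysis was possible because each group has 1 library and no result comes from a test.

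Depth is unknown, and a shallower library gives fewer and narrower peaks, which none of the intervals cover. Edges, gaps and reach are those of the calls, which differed in kind between targets (broad for H3K27ac), and the H3K4me3 and DMSO libraries were separate, the first with no treatment label. Midpoints of factor peaks stand in for binding positions to within the peak width, with medians of 402 bp for RUNX1 and 284 bp for BRG1.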

Other observations

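Factor midpoints lay somewhat more often on the side of the H3K4me3 peak with the longer DMSO H3K27ac reach. In peaks with no neighbour this was 55.6% of RUNX1 midpoints (54.2 to 57.0) and 55.4% of BRG1 midpoints (53.4 to 57.3). By width it was 61.5% for RUNX1 and 67.1% for BRG1 at 500 bp to 1 kb, 59.3% and 58.3% at 1 to 2 kb, 50.7% and 52.3% at 2 to 3 kb, and 50.4% and 47.1% at 3 kb or more. Under 500 bp it was 53.6% for RUNX1 (46.0 to 61.0) and 46.1% for BRG1 (36.2 to 56.2), so the lean was seen from 500 bp to 2 kb.

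Peaks under 500 bp differed by whether they had a neighbour. The 766 without a neighbour within 2 kb held a RUNX1 midpoint in 28.5% and a BRG1 midpoint in 15.9%, and the 1427 with one in 13.0% and 6.59%. Their DMSO H3K27ac shares were alike, at 74.0% and 75.5%. In pairs with unequal H3K27ac reach on the outer sides, the longer reach lay beyond the narrower peak in 544 of 909 (59.8%, 56.6 to 63.1).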
